A study of Mus musculus with 51 samples.

Results

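The 37 genes described here are interferon-stimulated genes of the mouse, a list of named genes that was looked up by gene symbol. Each of the 37 was found once among the 52636 genes of the deposited count table, 10741 of which had no count in any library. Interferons are secreted proteins that signal infection or danger to neighbouring cells. Type I and type III interferons act through the kinases JAK1 and TYK2 to form the factor ISGF3, which holds STAT2 and IRF9 and binds the interferon-stimulated response element (ISRE), whereas interferon gamma acts through the gamma-activated site (GAS). The products of these genes detect viral nucleic acids, block translation of foreign RNA, tag proteins with ISG15, restrict membrane fusion and feed peptides to MHC class I, and in mouse intestine the epithelium is known to express several of them without infection.

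The series profiled total RNA of epithelial cells sorted from the mouse oesophagus, its junction with the stomach, the stomach and the gut, in 51 libraries of 14 groups. SmoM2 is a mutant Smoothened that keeps Hedgehog signalling switched on without a ligand, and its Krt5 driver is active in the basal cells of squamous epithelium. EpCAM is an epithelial surface protein used for sorting, and Krt8YFP is a reporter of keratin 8, a keratin of simple and columnar epithelium. The labels give no age for the adult groups and do not say whether libraries of a group came from separate animals, so that p-values measure only the spread between these libraries.

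SmoM2 cells (n = 6) were Krt5-SmoM2, strain CD1, sorted for high EpCAM. Sox9cKO cells (n = 4) were Krt5-SmoM2-Sox9fl/fl, also EpCAM-high, so that SmoM2 is shared with the cells they were set against. K8YFP+ and K8YFP- cells (n = 3 each) were EpCAM-high cells with and without YFP from Krt5-SmoM2-Krt8YFP mice of mixed background. The time series was Krt5-SmoM2 labelled 3w or 7w, each sorted as EpCAM-high and EpCAM-low (n = 4 in each of the 4 groups), and the labels do not say from what the weeks are counted. Embryonic oesophagus (n = 2) was taken at E13.5 from Krt8YFP embryos of mixed background and sorted on EpCAM and YFP. Junction columnar cells (n = 4) were EpCAM-high and YFP+, junction squamous cells (n = 3) were EpCAM-high without YFP, and gut and stomach cells (n = 2 each) were sorted on YFP alone, all from Krt8YFP mice, of mixed background except that none is given for junction squamous cells. WT cells (n = 6) were wild type, strain CD1, sorted for low EpCAM. The gate therefore differs with the genotype between SmoM2 and WT, and only the EpCAM-low time-series groups share WT's gate. No strain is given for the time series, Sox9cKO or junction squamous cells. Beyond that, the raw sample names open with a number of ungiven meaning, which is shared in part or in whole between Sox9cKO and SmoM2, embryo and WT, K8YFP+ and K8YFP-, gut and stomach, and the gates within a week. In the other comparisons it differs between the groups and cannot be told apart from them.

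Library totals ranged from 1.61 M to 12.26 M counts. Markers of the labelled tissues were present where the labels place them: the summed level of 6 squamous genes was 7737 to 26630 CPM (counts scaled to a common library total) in adult oesophagus and junction squamous libraries, against 20.7 to 136.5 CPM in the columnar tissues. Gli1, a Hedgehog target, averaged 220.2 ± 34.9 CPM in SmoM2 and 0.703 ± 0.277 CPM in WT cells (SD, n = 6 each). Sox9 was at 51.7, 45.7, 127 and 45.8 CPM in Sox9cKO libraries, against 72.7, 89.95 and 193.7 CPM as the lowest, median and highest of SmoM2, so that Sox9 counts remained in every Sox9cKO library and the groups overlapped. In 2 pairs of WT libraries, 3 with 5 and 4 with 6, the counts lay closer together than in the other 13 WT pairs (chi-square per degree of freedom 1.92 and 2.47, against 11.0 to 35.6). Within each of the 2 pairs the raw names differ only in the leading number, which also holds for WT 2 with WT 3 and WT 5. The labels do not say whether paired libraries are independent. If they are not, n = 6 overstates the WT replicates and the p-values against WT are too small. The libraries WT 4 and WT 6 were both above the other 4 WT libraries in 28 of the 37 genes, whereas this held for 19.03% of the 15442 genes counted well enough in WT. Each count against WT is therefore also given without WT 4 and WT 6.

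Promoter sequences of 6 genes named in the comparisons below are shown first, because they carry the 2 kinds of element through which interferons are known to act. All are stretches just upstream of the transcription start, 5′ to 3′ on the gene's own strand, from RefSeq's annotation of GRCm38.p6, with matches to GAAANNGAAA (the ISRE core, either strand) or TTCNNNGAA (the GAS) in capitals. Matches may overlap, as in Isg15 and Gbp3. The window of Gbp2 ends with its match, 50 bases upstream of its RefSeq start, and this match lies inside the gene as GENCODE M21 annotates it.
Ifit1, ISRE, chr19:34640769-34640870, plus strand: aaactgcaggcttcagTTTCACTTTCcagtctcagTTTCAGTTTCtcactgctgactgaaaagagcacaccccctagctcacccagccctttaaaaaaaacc
Isg15, ISRE, chr4:156200819-156200938, minus strand: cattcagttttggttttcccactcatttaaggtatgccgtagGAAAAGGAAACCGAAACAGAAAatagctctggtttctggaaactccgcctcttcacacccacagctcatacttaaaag
Oas3, ISRE, chr5:120777662-120777779, minus strand: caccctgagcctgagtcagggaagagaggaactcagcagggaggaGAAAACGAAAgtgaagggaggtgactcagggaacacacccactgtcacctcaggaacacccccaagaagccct
Gbp2, ISRE, chr3:142620543-142620613, plus strand: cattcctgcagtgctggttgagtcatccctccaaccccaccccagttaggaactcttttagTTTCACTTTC
Gbp3, ISRE, chr3:142559924-142560025, plus strand: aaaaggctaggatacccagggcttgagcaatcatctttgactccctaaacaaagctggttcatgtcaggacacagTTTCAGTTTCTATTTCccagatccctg
Isg20, GAS, chr7:78913304-78913423, plus strand: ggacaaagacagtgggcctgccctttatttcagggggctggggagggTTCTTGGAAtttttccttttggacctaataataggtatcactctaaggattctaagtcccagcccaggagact

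Of the 37 genes, 30 had a RefSeq promoter. Within 250 bases upstream of the start, 11 of the 30 (36.67%) held the ISRE letters, against 3.463% of all 27025 genes with a promoter, and 7 of the 30 (23.33%) held the GAS letters, against 8.13%. A match describes letters and is not a measured binding site.

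Across the 14 groups the genes fell into a high range in the gut, an intermediate one in junction columnar cells and a low one elsewhere. Gut had the highest mean of the 14 groups in 29 of the 37 genes. The exceptions were Isg20 and Cxcl10, highest in junction squamous cells, Oas2 and Mx1, highest in junction columnar cells, Ddx58 and Ifitm1, highest in the embryo, Ifitm3, highest in SmoM2, and Gbp2, highest in 3w EpCAM-low cells. The neighbours in that order often lay close: Isg20 averaged 24.8 CPM in junction squamous and 24.0 CPM in 3w EpCAM-high cells, and Ddx58 averaged 65.8 CPM in the embryo and 64.2 CPM in the gut. The lowest mean was in the stomach for 9 genes, in 7w EpCAM-low cells for 7 and in the embryo for 6.

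**Figure D1:**
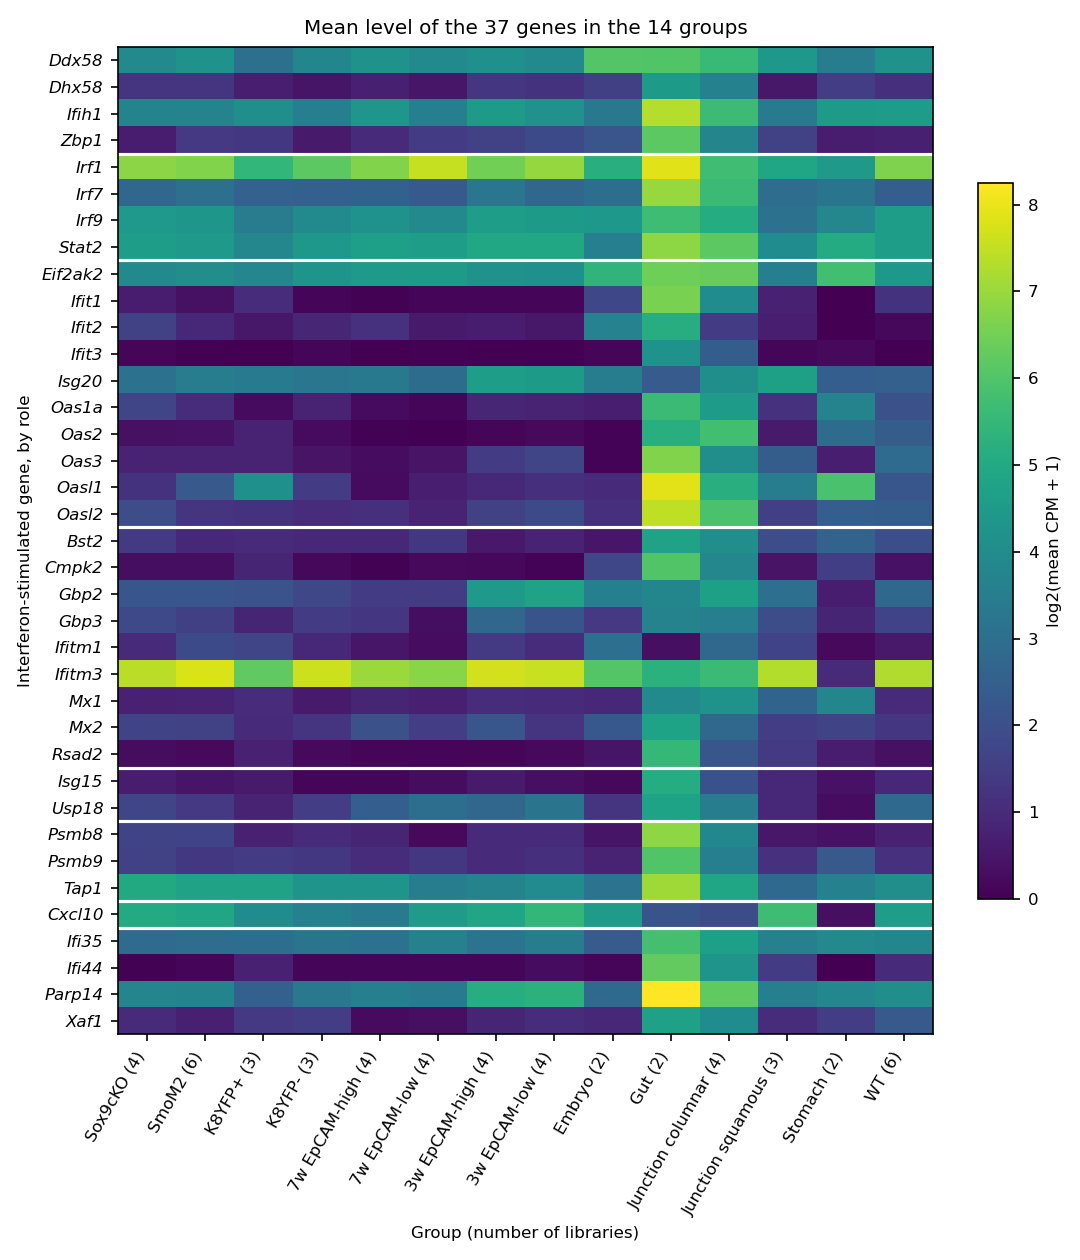
Mean level of each of the 37 genes (rows, grouped by role) in the 14 groups (columns, number of libraries in parentheses), as log2(mean CPM + 1). The gut column is brightest (highest) in most rows, 29 of 37, whereas Ifitm3 and Irf1 are the rows that stay high across the squamous groups.

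A large share of the squamous signal came from a pair of genes. Ifitm3, a membrane protein that restricts viral fusion, and Irf1, a transcription factor, together held 41.3 to 68.7% of the summed CPM of the 37 genes in adult squamous libraries other than K8YFP+ (38.3 to 44.9%). Per kilobase of exon, Ifitm3 was the highest of the 37 in 12 groups, with a mean of 328.2 CPM per kilobase in SmoM2 and 226.8 in WT, whereas Oasl1, a member of the oligoadenylate synthetase family, was the highest in the gut (90.18) and stomach (22.43). Several classical members were near the limit of detection in squamous cells: Ifit3 had no count in WT, in K8YFP+, in either 3w group or in 7w EpCAM-high cells, where 3 counts over the WT libraries would be 0.0563 CPM. Without Ifitm3 and Irf1, the remaining 35 genes summed to 2253 and 2696 CPM in gut, 585.0 to 1371 CPM in junction columnar cells, and 146.2 to 339.1 CPM in every other group.

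**Figure D2:**
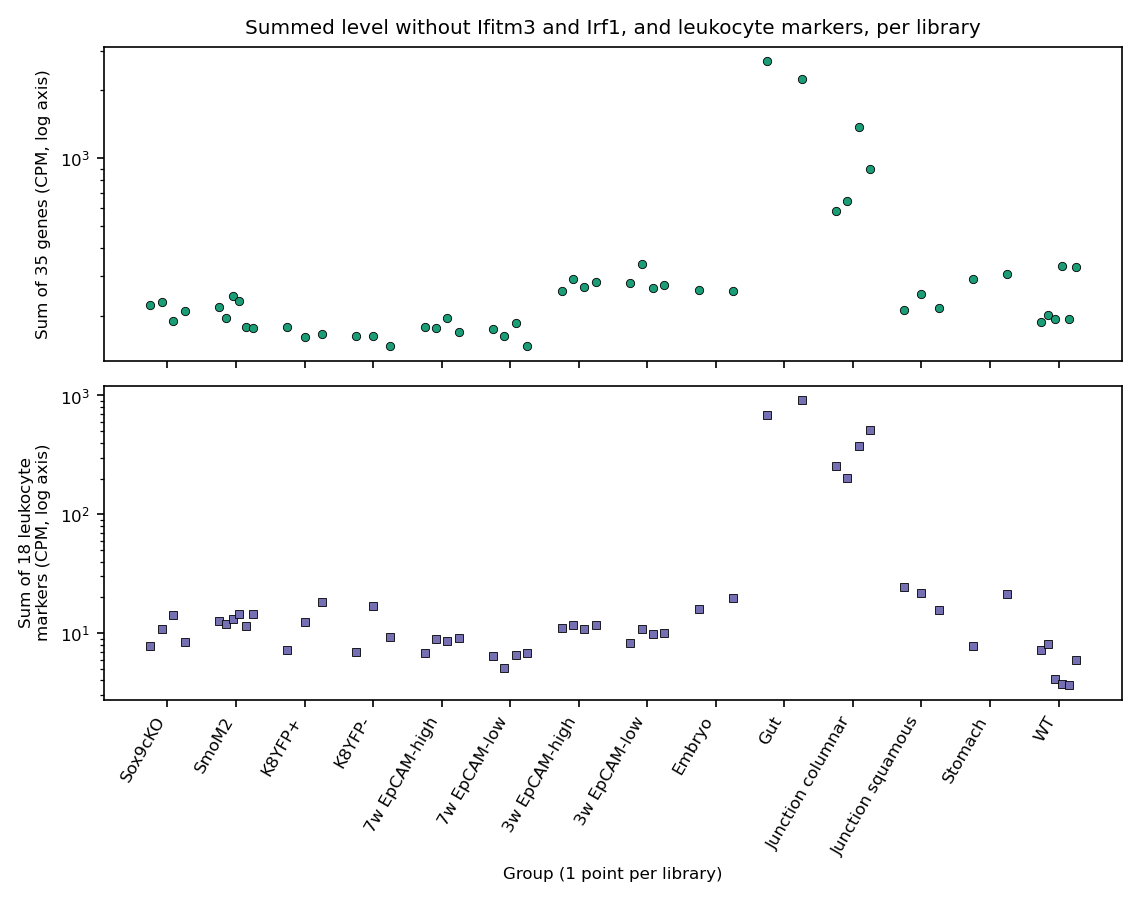
Summed CPM of 35 genes (all but Ifitm3 and Irf1, upper panel) and of 18 leukocyte markers (lower panel), 1 point per library on log axes, by group. Gut (2253 and 2696 CPM) and junction columnar libraries (585.0 to 1371 CPM) stand above the other groups in the upper panel, and the same groups stand above them in the lower panel.

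In SmoM2 cells the genes moved in both directions and most folds were small. Usp18, Oas3 and Xaf1 fell, whereas Ifitm1, Psmb8 and Isg20 rose. Of the 37, 27 passed the count filter, and 5 of these rose and 10 fell in SmoM2 cells at an adjusted p under 0.05 (edgeR's quasi-likelihood test with Benjamini-Hochberg adjustment over all genes, used throughout), where 26.2% of all 16224 genes tested rose and 23.3% fell (49.5% in all). The median log2 fold was -0.26 over the 27 genes and 0.006 over all genes. In sorted bulk samples such as these, fewer cells of a type and less RNA per cell cannot be told apart. The sum of 18 leukocyte markers was 11.5 to 14.6 CPM in SmoM2, against 3.65 to 8.09 CPM in WT, without overlap. Of these the pan-leukocyte gene Ptprc was at most 0.104 CPM in SmoM2 and 0.487 CPM in WT, and Csf1r was at 3.34 to 6.20 CPM in SmoM2, against 1.95 to 3.11 CPM in WT. The part of these markers in the folds was not tested.

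Usp18 removes ISG15 from proteins and restrains the type I interferon receptor. It was at 1.14, 1.38 and 3.00 CPM in SmoM2 (lowest, median and highest of 6 libraries), against 4.23, 5.21 and 8.86 CPM in WT. The groups did not overlap, and the log2 fold was -2.04 ± 0.25 (SE), adjusted p = 1.05e-05. Isg15 itself stayed under the count filter, at 0.373 CPM in SmoM2 and 0.926 CPM in WT on average.

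Among the RNA-directed effectors, Oas3, Oas1a and Eif2ak2 fell and Isg20 rose. Oas3, which makes the oligoadenylates that activate RNase L, was at 0.172, 0.732 and 1.22 CPM in SmoM2, against 0.609, 3.30 and 14.7 CPM in WT (log2 fold -3.23 ± 0.68, adjusted p = 0.00118). Its WT spread was wide, since WT 4 and WT 6 held 14.4 and 14.7 CPM and the other 4 held 0.609 to 3.77 CPM, and without that pair the log2 fold was -1.86 ± 0.53 (adjusted p = 0.0116). Isg20, an RNA exonuclease, was at 9.13, 9.77 and 11.7 CPM in SmoM2, against 3.65, 3.95 and 9.25 CPM in WT (log2 fold 0.94 ± 0.22, adjusted p = 0.00267). A single WT library, at 9.25 CPM, reached the SmoM2 range.

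Of the sensors of nucleic acids, Ifih1 (the RNA sensor MDA5) was at 4.47, 8.44 and 26.5 CPM in SmoM2, against 17.4, 20.3 and 30.7 CPM in WT (log2 fold -1.09 ± 0.36, adjusted p = 0.0199). The groups overlapped through 2 of the 6 SmoM2 libraries. Ddx58, encoding RIG-I, and Dhx58 were not called. Of the transcription factors, Irf7 rose a little, with 5.42, 7.02 and 9.24 CPM in SmoM2 against 3.06, 3.84 and 6.74 CPM in WT (log2 fold 0.55 ± 0.19, adjusted p = 0.0291). Irf9, the DNA-binding partner in ISGF3, had a log2 fold of -0.39 ± 0.16 (adjusted p = 0.0459).

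Of the antigen processing genes, Tap1 and Psmb8 were higher in SmoM2, and Psmb9 was not called (log2 fold 0.12 ± 0.32). Tap1, a subunit of the peptide transporter into the endoplasmic reticulum, was at 21.9, 26.8 and 29.7 CPM in SmoM2, against 11.3, 12.5 and 24.7 CPM in WT (log2 fold 0.60 ± 0.19, adjusted p = 0.0166). Psmb8, an immunoproteasome subunit, was at 1.15, 1.81 and 3.67 CPM in SmoM2, against 0, 0.276 and 1.82 CPM in WT (log2 fold 1.47 ± 0.56, adjusted p = 0.0407). In both genes the WT libraries that overlapped SmoM2 were WT 4 and WT 6, and without them the log2 fold of Psmb8 was 3.13 ± 0.60 (adjusted p = 0.00101).

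Of the membrane and GTPase genes, Ifitm1 was at 1.55, 2.52 and 3.96 CPM in SmoM2, against 0.118, 0.312 and 1.37 CPM in WT, without overlap (log2 fold 2.33 ± 0.43, adjusted p = 0.000355), whereas Bst2 (tetherin, -1.75 ± 0.41, or -0.95 ± 0.30 without WT 4 and WT 6) and Gbp2 (-0.82 ± 0.29) fell. Ifi35, an interferon-induced leucine zipper protein, was at 4.99, 6.58 and 8.32 CPM in SmoM2, against 7.92, 12.6 and 16.9 CPM in WT (log2 fold -1.04 ± 0.18, adjusted p = 0.000238). Xaf1, a pro-apoptotic gene, was at 0, 0.504 and 1.89 CPM in SmoM2, against 0.622, 4.11 and 7.28 CPM in WT (log2 fold -2.73 ± 0.61, adjusted p = 0.00181). Cxcl10, the chemokine of the list, was not called (0.14 ± 0.24).

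**Figure D3:**
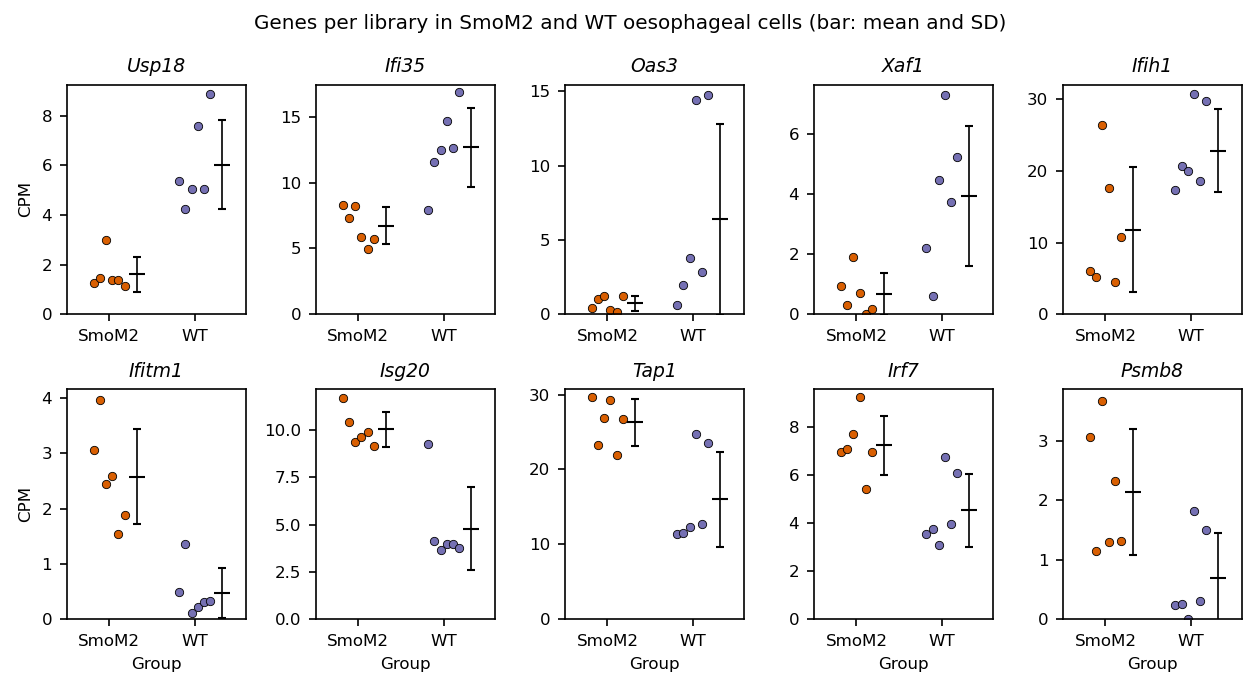
CPM of 10 called genes in each SmoM2 library (left, orange) and each WT library (right, purple), with the mean and SD beside the points. Usp18 and Ifitm1 do not overlap between the groups, and the highest pair of WT points for Oas3, Ifih1, Tap1, Irf7 and Psmb8 are WT 4 and WT 6.

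When each library was left out in turn, 10 of the 15 calls held every time, and Gbp2, Irf7, Irf9, Oas1a and Psmb8 lost theirs at least once. Their highest adjusted p was 0.066 for Gbp2 and 0.0907 for Oas1a without WT 4, 0.074 for Irf7 without WT 3, 0.107 for Irf9 without WT 6 and 0.0933 for Psmb8 without SmoM2 3. Each of these fits kept WT 4 or WT 6. With WT 3 and 5 summed, and WT 4 and 6 summed, 14 genes were called, 6 higher and 8 lower in SmoM2. With WT 4 and WT 6 both left out, 12 genes were called, 7 higher and 5 lower in SmoM2. Ifih1 (adjusted p = 0.0843), Eif2ak2 (0.0696), Gbp2, Irf9 and Oas1a were no longer among these 12. The pathway genes outside the list moved both ways too: of the receptors and Janus kinases 3 of 9 rose (Il10rb, Tyk2, Ifnar2) and 4 fell, among them Jak1, Ifnlr1 and Ifngr1. Of 45 further interferon-responsive genes, 30 passed the filter, with 6 higher in SmoM2 (Ifi203 and Ifi204 among them) and 13 lower (Ly6e, Samd9l and Ifi27 among them).

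Sox9cKO cells showed no call in the list against SmoM2 cells. None of the 28 genes that passed the filter was called by edgeR, where 1.18% of all genes rose and 1.48% fell in Sox9cKO (2.66% in all), and 6 had an unadjusted p under 0.05. The smallest adjusted p, 0.0693, belonged to Oasl1. DESeq2 called 2 genes lower in Sox9cKO, Oasl1 (log2 fold -1.53, adjusted p = 0.0107) and Ifitm1 (-1.35, adjusted p = 0.0206). Without Sox9cKO 2 edgeR called 3, Oasl1 (-2.07, adjusted p = 0.00947) and Zbp1 (-2.51, adjusted p = 0.0152) lower and Ifit2 (1.504, adjusted p = 0.0153) higher. Over the 28 genes the median log2 fold was 0.13, and over all genes it was 0.001. Against WT, the 51-library fit called 4 genes higher and 9 lower in Sox9cKO of 37 tested, where 23.1% and 19.3% of all genes were (42.4% in all), with a median of -0.42 against 0.044. Ifit2 (3.71), Tap1 (0.88) and Psmb8 (1.55) were higher and Ifi35 (-1.08), Oas3 (-3.03) and Oas2 (-3.86) lower by log2 fold. Without WT 4 and WT 6, 4 genes were higher and 7 lower, Oas2 (-1.44, adjusted p = 0.237), Ifi44 and Isg20 were no longer called, and the log2 folds of Oas3 and Psmb8 were -1.62 and 3.23. Ifit2 had a log2 fold of 5.399 then, with counts in 1 of the 4 remaining WT libraries. These values share the WT libraries with those of SmoM2 against WT.

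Among SmoM2 cells split by the Krt8 reporter, 20 of the 37 genes passed the filter, and 1 was called higher and 1 lower in K8YFP+ cells, where 13.1% and 6.83% of all genes were (19.9% in all). Over the 20 genes the median was 0.155 and -0.033 over all genes. Krt8 itself averaged 21.8 ± 15.8 CPM in K8YFP+ and 1.40 ± 1.67 CPM in K8YFP- cells (SD, n = 3 each). Oasl1 was at 23.1, 16.2 and 11.0 CPM in K8YFP+, against 4.10, 0.535 and 0.549 CPM in K8YFP- cells (log2 fold 3.65 ± 0.75, adjusted p = 0.015). Ifitm3 was at 68.0, 89.6 and 66.0 CPM in K8YFP+, against 170, 267 and 149 CPM in K8YFP- cells (-0.99 ± 0.26, adjusted p = 0.0339). Neither gene overlapped between the gates.

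Replicates of equal number deviated together in these groups. With the replicate number as a block 5 of 20 genes were called, where 4785 of all 15598 genes were, against 3110 without the block. Oasl1 (3.86 ± 0.50, adjusted p = 0.00145) and Ifitm3 (-0.96 ± 0.12, adjusted p = 0.00118) were joined by Ifih1 (0.95 ± 0.20, adjusted p = 0.0117), Tap1 (0.85 ± 0.25, adjusted p = 0.0381) and Ifitm1 (1.79 ± 0.56, adjusted p = 0.0462), all 3 higher in K8YFP+. Without the block, the call of Oasl1 was lost without K8YFP- 3 (adjusted p = 0.0575), and that of Ifitm3 without K8YFP- 2, K8YFP+ 1 or K8YFP+ 3, where its adjusted p reached 0.0896. The summed level of 6 fibroblast markers was 56.5, 520 and 276 CPM in K8YFP+, against 11.0, 67.5 and 56.3 CPM in K8YFP- libraries, and none of the 6 was at 0 in every library of a group. That of 4 endothelial markers was 22.7 to 109.6 CPM in K8YFP+, against 9.96 to 16.6 CPM in K8YFP- libraries. Their part in these folds was not tested.

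In the time series, 7w cells had lower levels than 3w cells in both gates, led by Gbp2, Parp14 and Isg20. Of the 28 genes that passed the filter, 1 rose and 14 fell at 7w in EpCAM-high cells, where 22% of all genes rose and 19.4% fell (41.4% in all). In EpCAM-low cells 0 rose and 15 fell at 7w, where 19.5% and 18.4% of all genes did (38% in all). The median log2 fold was -0.80 in EpCAM-high and -0.69 in EpCAM-low cells, and 0.015 over all genes in each. Marker sums of leukocytes and muscle were lower at 7w too, without overlap in either gate. The leukocyte sum was 6.82 to 9.12 CPM at 7w, against 10.9 to 11.8 CPM at 3w in EpCAM-high cells, and 5.14 to 6.82 CPM at 7w, against 8.35 to 10.8 CPM at 3w in EpCAM-low cells. That of 4 muscle markers was 1.68 to 4.24 CPM at 7w, against 4.75 to 7.21 CPM at 3w in EpCAM-high cells, and 4.96 to 6.52 CPM at 7w, against 9.53 to 19.4 CPM at 3w in EpCAM-low cells. Fibroblast markers were lower at 7w without overlap in EpCAM-low cells alone, at 30.4 to 40.1 CPM, against 43.2 to 59.4 CPM at 3w. Endothelial sums overlapped between the weeks in both gates. Single leukocyte markers did not all follow their sum: the pan-leukocyte gene Ptprc had no count in any 3w EpCAM-low library but had counts in 7w EpCAM-low cells. The part of these markers in the folds was not tested.

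Gbp2, a guanylate-binding GTPase that attacks the vacuoles of intracellular microbes, showed the largest fold of the 28 in each gate. In EpCAM-high cells it was at 1.06, 1.24, 2.64 and 1.92 CPM at 7w, against 13.8, 27.1, 20.98 and 22.1 CPM at 3w (log2 fold -3.64 ± 0.34, adjusted p = 3.06e-08). In EpCAM-low cells it was at 1.47, 1.19, 2.91 and 1.57 CPM at 7w, against 22.3, 39.1, 21.4 and 21.1 CPM at 3w (-3.89 ± 0.34, adjusted p = 2.16e-08). Every 3w library was above every 7w library. WT libraries lay between the weeks, with 3.41, 5.47 and 8.45 CPM as lowest, median and highest.

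Parp14, a mono-ADP-ribosyltransferase, was at 9.24, 11.4, 12.6 and 10.1 CPM at 7w, against 30.5, 34.7, 35.4 and 35.6 CPM at 3w in EpCAM-high cells (log2 fold -1.70 ± 0.22, adjusted p = 2.05e-06). In EpCAM-low cells it was at 7.10, 7.31, 15.8 and 8.57 CPM at 7w, against 36.0, 42.6, 34.1 and 40.0 CPM at 3w (-2.02 ± 0.22, adjusted p = 3.98e-07). Isg20 was at 6.82, 7.86, 9.84 and 11.6 CPM at 7w, against 19.4, 31.3, 21.1 and 23.9 CPM at 3w in EpCAM-high cells (-1.45 ± 0.23, adjusted p = 4.07e-05). Its promoter above holds the GAS letters and not the ISRE letters. In EpCAM-low cells Isg20 was at 5.36, 7.51, 7.04 and 6.64 CPM at 7w, against 22.8, 24.3, 18.9 and 20.2 CPM at 3w (-1.76 ± 0.25, adjusted p = 8.85e-06). Neither Parp14 nor Isg20 overlapped between the weeks in either gate.

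The other genes that fell in both gates were Gbp3, Ifitm3, Cxcl10, Irf7, Irf9, Ifitm1, Dhx58, Oas3 and Xaf1. Gbp3 fell by 1.94 in EpCAM-high and by 3.79 in EpCAM-low cells on the log2 scale, Ifitm3 by 0.73 and 0.82, and Cxcl10, which attracts T cells, by 1.63 and 1.02. Eif2ak2 (PKR), Irf1, Ddx58 and Ifi35 were not called in either gate. Of 33 further interferon-responsive genes that passed the filter, 2 rose and 8 fell in EpCAM-high and 2 rose and 11 fell in EpCAM-low cells, with Nlrc5, the MHC class I transactivator, down by 3.26 and 2.68. With each library left out in turn, 10 of the 15 calls held every time in each gate. Those lost at least once were Dhx58, Irf9, Tap1, Oas3 and Xaf1 in EpCAM-high cells, with a highest adjusted p of 0.128 (Irf9 without 3w EpCAM-high 2), and Irf7, Stat2, Tap1, Oas3 and Xaf1 in EpCAM-low cells, with a highest adjusted p of 0.129 (Xaf1 without 7w EpCAM-low 1).

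**Figure D4:**
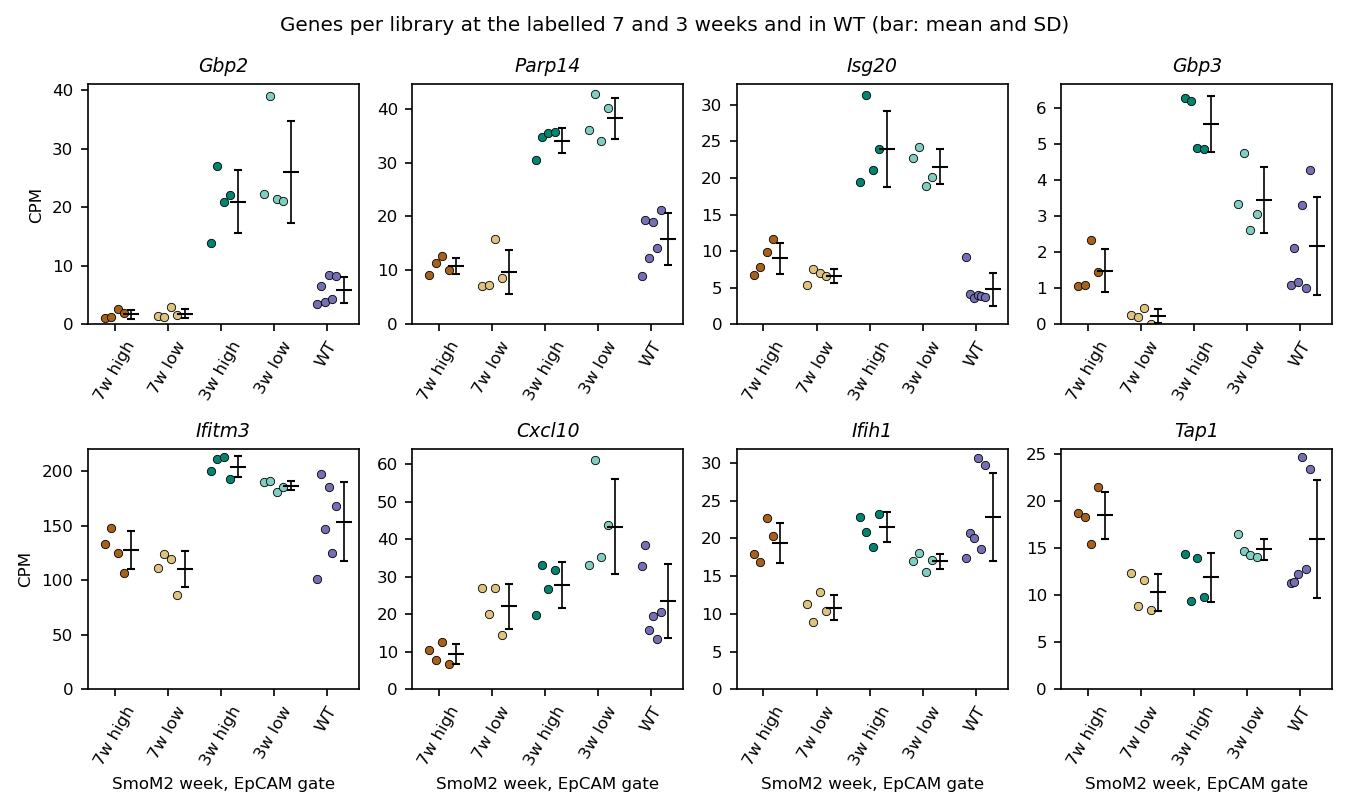
CPM of 8 genes in each library of 7w EpCAM-high, 7w EpCAM-low, 3w EpCAM-high, 3w EpCAM-low and WT cells, with the mean and SD beside the points. Gbp2, Parp14, Isg20 and Ifitm3 are higher at 3w than at 7w in every library of both gates, and Tap1 has its highest mean of the 4 time-series groups in 7w EpCAM-high cells.

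Between the gates 7.143% of the 28 genes were called at 3w and 21.43% at 7w. Both lay below the shares of all genes, 15.2% and 32.3%, which rose between the weeks as well. At 3w, 2 of 28 genes rose and 0 fell in EpCAM-high cells, where 7.37% and 7.84% of all genes did (15.2% in all). Mx2 was at 4.05, 2.65, 2.94 and 4.73 CPM in EpCAM-high, against 1.37, 2.14, 1.55 and 0.646 CPM in EpCAM-low cells (log2 fold 1.27 ± 0.39, adjusted p = 0.0289). Irf7, a master regulator of type I interferon production, was at 8.09, 8.68, 9.23 and 8.15 CPM in EpCAM-high, against 5.31, 6.41, 5.00 and 5.65 CPM in EpCAM-low cells (0.56 ± 0.19, adjusted p = 0.0466). Neither overlapped, but Mx2 lost its call in 5 of 8 and Irf7 in 7 of 8 fits with a library left out, with highest adjusted p values of 0.0994 without 3w EpCAM-low 4 and 0.137 without 3w EpCAM-low 3. Replicates of equal number deviated together at 3w, though the labels do not say that they were paired. With the block Mx2 was called (adjusted p = 0.0246), Irf7 was not (0.0528) and Usp18 was called lower in EpCAM-high cells (-0.57 ± 0.19, adjusted p = 0.0404). In the fit of all 51 libraries none was called.

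At 7w, 3 genes rose and 3 fell in EpCAM-high cells, where 15.5% and 16.8% of all genes did (32.3% in all), and none lost its call when a library was left out. Ifih1 was at 17.9, 16.8, 22.8 and 20.3 CPM in EpCAM-high, against 11.2, 8.89, 12.9 and 10.3 CPM in EpCAM-low cells (0.79 ± 0.16, adjusted p = 0.000595). Gbp3 was at 1.06, 1.10, 2.35 and 1.44 CPM in EpCAM-high, against 0.268, 0.198, 0.459 and 0 CPM in EpCAM-low cells (2.495 ± 0.65, adjusted p = 0.00442). Tap1 was at 18.8, 18.3, 15.4 and 21.5 CPM in EpCAM-high, against 12.3, 8.89, 11.6 and 8.39 CPM in EpCAM-low cells (0.79 ± 0.22, adjusted p = 0.00808). These 3 were higher in every EpCAM-high library than in any EpCAM-low one.

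Cxcl10, Ifi35 and Usp18 went the other way at 7w. Cxcl10 was at 10.4, 7.72, 12.5 and 6.84 CPM in EpCAM-high, against 27.1, 19.9, 26.9 and 14.5 CPM in EpCAM-low cells (-1.30 ± 0.32, adjusted p = 0.00256). Ifi35 was at 8.48, 7.86, 7.34 and 6.48 CPM in EpCAM-high, against 11.0, 10.9, 12.2 and 10.5 CPM in EpCAM-low cells (-0.62 ± 0.17, adjusted p = 0.00617). Usp18 was at 5.15, 5.10, 3.82 and 3.84 CPM in EpCAM-high, against 6.97, 7.90, 6.89 and 5.94 CPM in EpCAM-low cells (-0.68 ± 0.21, adjusted p = 0.0137). These 3 did not overlap between the gates either. The median log2 fold over the 28 genes was 0.14 at 7w and -0.15 at 3w, against -0.019 and -0.005 over all genes. The endothelial marker sum was 13.3 to 17.8 CPM in EpCAM-high, against 6.16 to 12.2 CPM in EpCAM-low cells at 7w, and 16.2 to 22.4 CPM in EpCAM-high, against 11.3 to 15.1 CPM in EpCAM-low cells at 3w. The muscle sums given above were lower in EpCAM-high than in EpCAM-low cells in each week, and the part of these markers was not tested.

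The test of whether the gate difference itself changed between the weeks called 1 of 28 genes, where 1.55% of all genes were called upward and 0.759% downward (2.31% in all). That gene was Tap1, with a difference of 1.16 ± 0.31 on the log2 scale (adjusted p = 0.0483). Tap1 was higher at 7w than at 3w in EpCAM-high cells (log2 fold 0.58 ± 0.22, adjusted p = 0.0333) and lower at 7w than at 3w in EpCAM-low cells (-0.58 ± 0.23, adjusted p = 0.0464). Its call was lost in 14 of 16 fits with a library left out and in the fit of all 51 libraries (adjusted p = 0.249), and held with the replicate block (adjusted p = 0.0288). The 5.79% of Psmb9's exon bases that Tap1 overlaps on the other strand were not separated, since the strand setting of the counting is not given in the sources used here.

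Against WT in the same EpCAM-low gate, 3w cells had 5 of 28 genes higher and 7 lower, where 23.1% and 24.3% of all genes were (47.4% in all), and the median log2 fold was -0.089 against 0.008 over all genes. Isg20, at the values given above for 3w EpCAM-low cells, was above every WT library (3.65, 3.95 and 9.25 CPM as lowest, median and highest; log2 fold 2.11 ± 0.22, adjusted p = 7.08e-08). Gbp2 (2.10 ± 0.24, adjusted p = 3.23e-07) and Parp14 (1.22 ± 0.19, adjusted p = 1.1e-05) likewise did not overlap. Zbp1, a sensor of left-handed nucleic acids that can trigger cell death, was at 2.88, 2.44, 2.74 and 2.26 CPM at 3w, against 0.373, 0.608 and 0.961 CPM in WT (1.86 ± 0.28, adjusted p = 1.03e-05). Cxcl10 had a log2 fold of 0.83 ± 0.25 (adjusted p = 0.00925), lost without 3w EpCAM-low 2 (adjusted p = 0.068). The lower genes were Oas1a (-2.06 ± 0.63), Bst2 (-2.05 ± 0.49), Xaf1 (-1.94 ± 0.45), Oasl1, Ifih1, Ifi35 and Oas3. Without WT 4 and WT 6, 11 genes were called, 8 higher and 3 lower, Oas1a, Oas3, Ifih1 and Ifi35 were no longer called, and the log2 fold of Bst2 was -1.22. Single libraries ended the calls of Oas3 (adjusted p = 0.101 without WT 6) and Ifi35 (0.145 without 3w EpCAM-low 3) too.

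The 7w cells against WT had 1 gene higher and 13 lower in the EpCAM-low gate, where 19.4% and 21% of all genes were (40.4% in all), and 2 higher and 15 lower in the EpCAM-high gate, where 27.7% and 29.9% were (57.6% in all). The medians were -0.75 and -0.53, against 0.009 and -0.011 over all genes. Zbp1 was the gene higher at 7w in EpCAM-low cells (1.24 by log2 fold), and Ifih1 (-1.18), Xaf1 (-4.03) and Oasl1 (-2.68) were the lower ones of smallest p. In 7w EpCAM-high cells Isg20 (0.77) and Mx2 (0.90) were higher and Oasl1 (-4.45), Xaf1 (-4.54) and Ifi35 (-0.92) lower. In 3w EpCAM-high cells 9 genes were higher and 7 lower, where 28.2% and 30.7% of all genes were (58.9% in all), with Gbp2 (1.74) among the higher and Bst2 (-2.68) among the lower. Without WT 4 and WT 6 the calls were 1 higher and 11 lower in 7w EpCAM-low, 2 higher and 11 lower in 7w EpCAM-high, and 9 higher and 4 lower in 3w EpCAM-high cells. Isg20 then lost its call in 7w EpCAM-high cells (adjusted p = 0.0502), Mx2 had a log2 fold of 1.56 there, and Bst2 one of -1.84 in 3w EpCAM-high cells. All of these comparisons share the same 6 WT libraries and 1 fit.

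Embryonic cells had low levels of most of the list but high Ddx58 and Ifit2. Against WT, 6 of 37 genes were higher and 19 lower in the embryo, where 36.1% and 27.8% of all genes were (64% in all), and the median log2 fold was -1.21 against 0.162 over all genes (0.265 with RLE size factors). Ddx58 was at 49.95 and 81.5 CPM in the embryo, against a WT mean of 18.1 CPM (1.35 ± 0.20). Ifit2, whose protein binds viral RNA, was at 19.1 and 4.40 CPM in the embryo, against a WT mean of 0.127 CPM (5.82 ± 0.59). Ifitm1, of the same membrane family as Ifitm3, was at 5.91 and 8.15 CPM (3.38 ± 0.49). Stat2 was at 10.4 and 11.3 CPM in the embryo, against a WT mean of 23.7 CPM (-1.65), and Ifi35 (-2.13 ± 0.26) and Parp14 (-1.88) were lower as well. SmoM2 cells against the embryo had 10 genes higher and 7 lower, where 26.6% and 30.4% of all genes were (57% in all), with Ifitm3 (2.17), Tap1 (2.12) and Stat2 (1.33) higher and Ddx58 (-1.52), Ifit2 (-3.35) and Eif2ak2 (-1.05) lower by log2 fold. Without WT 4 and WT 6, 8 genes were higher and 15 lower in the embryo than in WT, and Ifit2 had a log2 fold of 7.51, with counts in 1 of the 4 remaining WT libraries. The sum of 6 fibroblast markers was 156.7 and 339.2 CPM in the embryo, against 17.3 to 107.0 CPM in WT, and its part in the folds was not tested. The embryo differed from WT and SmoM2 in age, genotype (Krt8YFP against wild type or Krt5-SmoM2), background (mixed against CD1) and gate at once. From SmoM2 it also differed in the number of the raw names. These cannot be told apart.

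At the junction with the stomach, columnar cells held higher levels of the list than squamous cells, including all 4 sensors, all 4 transcription factors and all 3 antigen processing genes. Of the 37 genes 35 passed the filter, and 27 rose and 3 fell in columnar cells, in a contrast in which 39.2% of all genes rose and 35.2% fell (74.4% in all). The median log2 fold was 1.91 over the 35 genes and 0.075 over all genes. A gene that passes the filter only through the group where it is high had to differ, so that these counts describe the 35.

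Eif2ak2, the kinase that stops translation on double-stranded RNA, was at 75.8, 76.7, 92.2 and 77.5 CPM in columnar cells, against 8.77, 12.3 and 11.7 CPM in squamous cells (log2 fold 2.57 ± 0.14, adjusted p = 2.61e-08). Stat2 was at 58.1, 64.7, 81.0 and 82.2 CPM in columnar cells, against 11.9, 18.9 and 15.1 CPM in squamous cells (1.91 ± 0.18, adjusted p = 2.04e-06). Ifih1 was at 38.0, 44.4, 63.0 and 51.7 CPM in columnar cells, against 6.58, 10.4 and 11.0 CPM in squamous cells (2.08 ± 0.22, adjusted p = 5.04e-06). Every columnar library was above every squamous one in these 3 genes.

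Oas2, Cmpk2 and Oasl2 had the largest folds upward. Oas2 was at 25.4, 30.3, 114 and 40.3 CPM in columnar cells, against 0.157, 1.08 and 0.285 CPM in squamous cells (6.33 ± 0.82, adjusted p = 2.69e-05). Cmpk2, a mitochondrial nucleotide kinase next to Rsad2 on the chromosome, was at 9.53, 12.4, 17.0 and 13.2 CPM in columnar cells, against 0.157, 0.768 and 0.142 CPM in squamous cells (4.82 ± 0.44, adjusted p = 1.62e-06). Oasl2 was at 27.5, 45.3, 101 and 60.4 CPM in columnar cells, against 0.783, 4.61 and 0.570 CPM in squamous cells (4.56 ± 0.61, adjusted p = 3.6e-05). Columnar library 3 was the highest of the 4 in each of these genes.

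Psmb8 was at 8.92, 6.81, 17.0 and 20.97 CPM in columnar cells, against 0.783, 0.307 and 0.285 CPM in squamous cells (4.51 ± 0.57, adjusted p = 2.19e-05). Usp18 was at 7.38, 5.28, 19.1 and 7.95 CPM in columnar cells, against 0.626, 1.38 and 0.855 CPM in squamous cells (3.01 ± 0.54, adjusted p = 0.000332). Parp14 was at 44.7, 57.9, 118 and 79.5 CPM in columnar cells, against 8.46, 12.0 and 11.7 CPM in squamous cells (2.49 ± 0.32, adjusted p = 2.57e-05). Isg15 (1.40 ± 0.84), Rsad2 (0.75 ± 0.55), Mx1, Mx2 and Oas3 were not called.

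Cxcl10, Ifitm3 and Isg20 were the 3 genes lower in columnar cells. Cxcl10 was at 0.307, 0.851, 6.07 and 3.62 CPM in columnar cells, against 60.5, 40.3 and 51.3 CPM in squamous cells (-4.67 ± 0.45, adjusted p = 2.49e-06). Ifitm3 was at 28.4, 50.5, 71.2 and 44.3 CPM in columnar cells, against 154, 148 and 164 CPM in squamous cells (-1.997 ± 0.22, adjusted p = 8.9e-06). Isg20 was at 18.4, 12.6, 20.1 and 14.5 CPM in columnar cells, against 24.0, 27.5 and 22.8 CPM in squamous cells (-0.91 ± 0.17, adjusted p = 0.000461). None of the 3 overlapped between the groups.

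Columnar libraries 3 and 4 had the highest sums of the list, 1495 and 1011 CPM, against 656.3 and 739.0 CPM in libraries 1 and 2. Without libraries 3 and 4, 25 genes were called, 22 higher and 3 lower, and Irf1, Ifi44, Zbp1, Gbp2 and Gbp3 were no longer called. With single libraries left out 25 of the 30 calls held every time, and those lost at least once were Irf1, Ifi44, Ifitm1, Gbp2 and Gbp3, with a highest adjusted p of 0.157 (Gbp3 without squamous 1). Several leukocyte markers differed between the groups too. The sum of 18 of them was 255.5, 203.0, 374.2 and 515.3 CPM in columnar cells, against 24.3, 21.8 and 15.7 CPM in squamous cells. The pan-leukocyte gene Ptprc was at 106, 114, 54.4 and 74.8 CPM in columnar libraries, against 0, 0.154 and 0.143 CPM in squamous ones, and the MHC class II chain Cd74 at 115, 68.2, 235 and 331 CPM, against 2.35, 1.69 and 2.14 CPM. Most of the columnar sum came from these and H2-Aa. Other markers of the list were higher in squamous cells or alike: the T cell gene Cd3e was at 0, 0, 0 and 0.181 CPM in columnar cells, against 13.3, 14.6 and 8.27 CPM in squamous cells, Csf1r was at 3.03 to 5.96 CPM in columnar cells, against 2.14 to 3.76 CPM in squamous cells, and Cd207 and Siglech had no count in columnar libraries. The part of these markers in the folds was not tested.

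Outside the list, 34 of 40 further interferon-responsive genes that passed the filter rose in columnar cells, among them Lgals3bp, Pml and Tapbp, and 2 fell, Ifi203 and Ifi204. Of 11 signal transducers 7 rose and 3 fell. Of 9 receptors and Janus kinases 4 rose and 3 fell, near the shares of all genes in this contrast (39.2% and 35.2%). Transcripts of the interferons themselves were at or near 0: of 7 ligand genes Ifnk, an interferon of keratinocytes, was the highest, with group means of at most 1.86 CPM.

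Gut cells had the highest mean of any group in 29 of the 37 genes, and stomach cells the lowest in 9. Stomach was not among the lowest groups in every measure. Without Ifitm3 and Irf1 its libraries summed to 289.7 and 306.7 CPM, in the upper part of the 146.2 to 339.1 CPM outside gut and junction columnar cells. Of 37 genes tested in the 51-library fit, 34 rose and 0 fell in gut, where 15.6% and 15.4% of all genes did (31% in all), and the median log2 fold was 4.15 over the 37 and -0.027 over all genes. In this fit too, a gene that passes the filter only through the group where it is high had to differ, so that these counts describe the 37. Parp14 was at 305 and 304 CPM in gut, against 14.03 and 13.2 CPM in stomach (4.74 ± 0.37, adjusted p = 3.51e-14). Irf7 was at 149 and 101 CPM in gut, against 4.59 and 11.9 CPM in stomach (4.30 ± 0.39, adjusted p = 4.43e-12). Psmb8 was at 91.6 and 139 CPM in gut, against 0.656 and 0 CPM in stomach (8.21 ± 0.82, adjusted p = 5.19e-11). The groups did not overlap in these 3 genes. Isg15, the ubiquitin-like protein, was at 58.8 and 8.54 CPM in gut, against 0 and 0.627 CPM in stomach, without overlap but with gut libraries far apart (7.67 ± 1.24, adjusted p = 2.93e-06).

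Ifit1, Ifit2 and Ifi44 had no count in either stomach library, where 3 counts over both would be 0.277 CPM. Against that floor, which covers counting error only, Ifit1 was at least 341.9-fold, Ifi44 at least 274.9-fold and Ifit2 at least 123.8-fold higher in gut, and all of these bounds lie above the median of the list. Ifitm1, Mx1 and Isg20 were the genes not called between gut and stomach. Isg20 averaged 4.15 CPM in gut and 4.58 CPM in stomach (0.09 ± 0.47). Of 45 further interferon-responsive genes 39 rose and 0 fell in gut, Parp12, Psme1 and Tap2 having the smallest p. The leukocyte marker sum was 683.8 and 912.9 CPM in gut, against 7.74 and 21.3 CPM in stomach. The larger share of it was Cd74 (531 and 626 CPM in gut), while Ptprc was at 1.78 and 3.58 CPM in gut, and its part in the folds was not tested. With 2 libraries in each group, the spread in this fit came mostly from the other groups.

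Junction columnar cells stood above stomach, with 28 of 37 genes higher and 0 lower, where 18.5% and 13.4% of all genes were (31.9% in all). The median log2 fold was 2.40, against 0.068 over all genes. The same limit of the filter holds for this comparison, so that its counts describe the 37. Ifitm3 was at 28.4 to 71.2 CPM in columnar cells, against 1.71 and 0.313 CPM in stomach (5.05 ± 0.53). Ddx58 was at 42.6, 43.4, 63.9 and 41.6 CPM in columnar cells, against 8.26 and 12.2 CPM in stomach (2.05 ± 0.28). This count changed with the libraries: it was 15 without stomach library 1, and 21, 20 higher and 1 lower, without columnar libraries 3 and 4. The gates differ here, EpCAM and YFP for the junction and YFP alone for stomach, as does the number in the raw names, and neither can be told apart from the tissue.

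K8YFP+ SmoM2 cells had lower levels than junction columnar cells, which were sorted on the same reporter but differed in their markers. The 6 squamous genes summed to 17530 to 26560 CPM in K8YFP+, against 27.5 to 136.5 CPM in junction columnar libraries. Krt8 averaged 21.8 CPM in K8YFP+ and 769.8 CPM in junction columnar cells. Of 37 genes 2 were higher and 28 lower in K8YFP+, where 27.4% and 33.4% of all genes were (60.8% in all), with a median log2 fold of -2.86 against -0.149 over all genes. Genes that pass the filter of this fit only through a group where they are high had to differ here as well. Parp14 was at 3.13, 6.85 and 4.46 CPM in K8YFP+ (-3.73 ± 0.33 against the junction columnar values above), Eif2ak2 at 11.9, 12.4 and 15.2 CPM (-2.20 ± 0.20) and Stat2 at 11.8, 11.2 and 16.2 CPM (-2.02 ± 0.22). No K8YFP+ library reached a columnar library in these 3 genes. The 2 higher genes were Cxcl10, at 17.4, 16.8 and 11.0 CPM in K8YFP+ (3.00 ± 0.51), and Ifitm3 (1.03 ± 0.28). Without columnar libraries 3 and 4, 25 genes were called, 3 higher and 22 lower. Leukocyte markers summed to 7.16 to 18.3 CPM in K8YFP+ and to 203.0 to 515.3 CPM in junction columnar libraries, and its part in the folds was not tested. Fibroblast markers summed to 56.5 to 520.4 CPM in K8YFP+, against 12.9 to 38.1 CPM in junction columnar libraries, and their part was not tested either. The SmoM2 genotype and the number in the raw names differ between these groups as well, and cannot be told apart from the cell type.

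**Figure D5:**
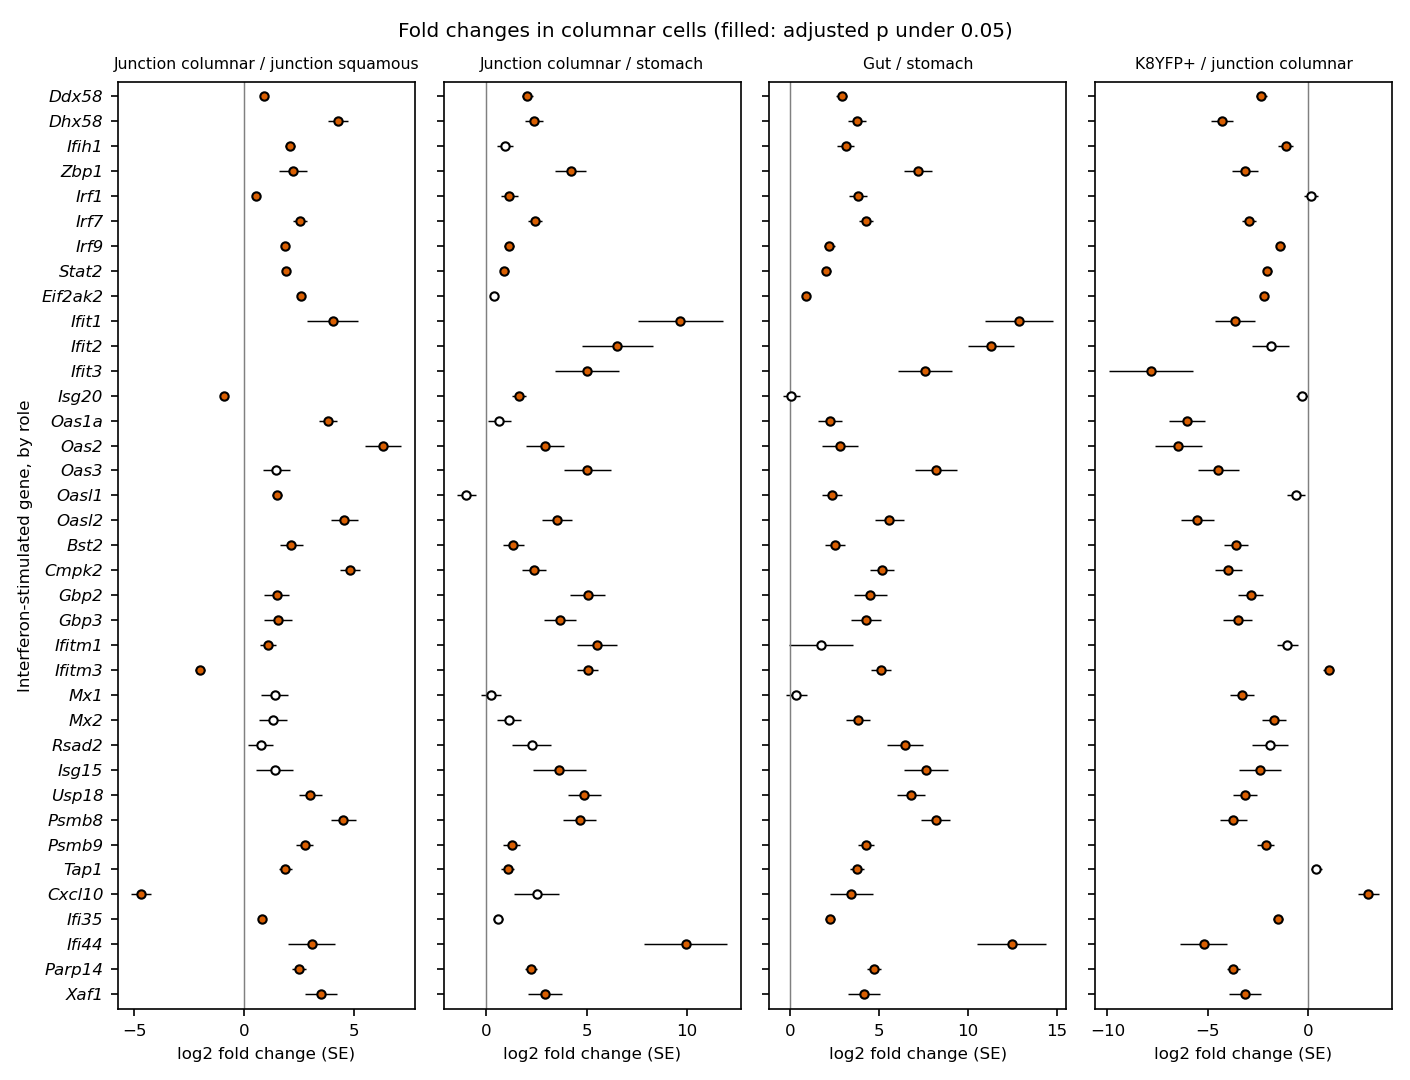
Log2 fold change with its SE for each of the 37 genes in junction columnar against junction squamous, junction columnar against stomach, gut against stomach and K8YFP+ against junction columnar cells (filled points, adjusted p under 0.05; genes without a point did not pass the filter). Most points lie right of 0 in the first 3 panels and left of 0 in the last, with Cxcl10 and Ifitm3 on the opposite side in the first and last and Isg20 in the first, and the fitted folds of Ifit1, Ifit2 and Ifi44 against stomach depend on the prior count.

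Junction squamous cells were closer to WT oesophagus, with 7 genes higher and 10 lower of 37, where 16.2% and 14.3% of all genes were (30.5% in all), and a median log2 fold of -0.031 against 0 over all genes. Isg20 was at 24.0, 27.5 and 22.8 CPM in junction squamous cells, against a WT mean of 4.78 CPM (2.39 ± 0.23). Mx1, a dynamin-like GTPase, was at 5.79, 5.69 and 4.42 CPM in junction squamous cells, against a WT mean of 1.01 CPM (2.36), and Ifitm1 (2.24) was higher too. Irf1 was at 30.5, 28.0 and 26.5 CPM in junction squamous cells, against a WT mean of 99.3 CPM (-1.81). Irf9 (-1.65) and Usp18 (-2.62) were lower as well. The count was 10 in place of 17 without junction squamous library 1. Without WT 4 and WT 6, 18 genes were called, 11 higher and 7 lower, so that the balance of directions turned, and Mx1 had a log2 fold of 3.07. Oas2, Dhx58 and Xaf1 were no longer called, and Ifit2, Irf7, Ddx58 and Ifi44 were then called higher. The leukocyte marker sum was 15.7 to 24.3 CPM in junction squamous cells, against 3.65 to 8.09 CPM in WT. Most of the junction squamous sum was the T cell gene Cd3e, at the values given above. Other markers went the other way: Fcer1g and Lyz2 had counts in WT and none in junction squamous cells. Ptprc was near the limit of detection in junction squamous cells and did not exceed the highest WT library there, so that no direction is read from it. The part of these markers in the folds was not tested. The gate and the number in the raw names differ between these groups along with the site, and no strain is given for junction squamous cells.

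Counts of near-identical copies (Ifit3 with Ifit3b, Oas1a with Oas1g and Gbp2 with Gbp2b) are uncertain by an unknown amount, and Mx2 is annotated as a polymorphic pseudogene. Exons of 14 of the 37 genes overlap another annotated gene, by at most 16.8% of the gene's exon bases (Ifi35), and reads from opposite strands there could not be told apart.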

How the data were processed

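Total RNA of sorted cells was sequenced (NuGen Ovation Solo libraries, per the labels). The deposited values are read counts per gene, made by the authors with STAR 2.5.3a and HTSeq on GRCm38/mm10, per the submitters' processing notes, which also name edgeR. Which gene annotation they counted on, and whether strand was used, is not given in the sources used here. CPM are counts scaled to a common plain library total.

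The main test was edgeR 4.0.16 in R 4.3.3 (quasi-likelihood F test, TMM scaling, filterByExpr with a minimum count of 10 and a minimum total of 15). Calls needed an adjusted p under 0.05, by Benjamini-Hochberg across every gene in the fit, testing both directions. SmoM2 against WT, Sox9cKO against SmoM2, K8YFP+ against K8YFP- and the junction groups were fitted alone. WT and the time series made 1 fit of 22 libraries, and the other comparisons, 20 in all, came from 1 fit of 51. Errors are SD for CPM and SE for log2 folds. The labels tie replicate numbers to no animal. Deviations of libraries of equal number correlated above 0.1 in every pair of the K8YFP groups (0.291 to 0.409) and of the 3w gates (0.165 to 0.295), and the replicate block is given there. Gene symbols, exon lengths and overlaps came from GENCODE M21. Scripts were tested on simulated data.

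The members and lists were chosen with earlier results of these data known. Any of the 37 genes may be named. Values per library are given for called genes: in the main comparisons the smallest p in each role and the 3 largest folds in each direction, elsewhere up to 3 in each direction by smallest p. Other genes are the called ones of smallest p in their list, up to 3.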

Additional observations from a re-analysis of the deposited data

Results flagged for a closer look

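A library that stood apart from the others of its group was looked for in groups of 4 to 10 libraries by the gap to its nearest neighbour, among 128 pairs of gene and group with a mean of at least 5 CPM. This marked 14 of the 128, and chance marks about 1 in 20.

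Junction columnar library 3 accounted for 8 of the 14, and it was the highest of its 4 libraries in each. Ddx58 was at 63.9 CPM there, against 41.6 to 43.4 in the other 3, and Dhx58 at 19.1 CPM, against 8.61 to 9.04. Eif2ak2 was at 92.2 CPM, against 75.8 to 77.5, and Ifi35 at 28.9 CPM, against 22.8 to 23.3. Ifit1 was at 43.9 CPM, against 3.54 to 9.04, and Oas1a at 35.7 CPM, against 16.4 to 19.1. Oas2 was at 114 CPM, against 25.4 to 40.3, and Xaf1 at 36.4 CPM, against 7.23 to 9.87. The leukocyte marker sum was 374.2 CPM in this library, against 203.0 to 515.3 CPM in the other 3, and its part in these values was not tested.

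In WT, Irf1 was at 235 CPM in library 1, against 52.5 to 118 in the other 5, and Stat2 was at 14.2 CPM in library 2, against 22.8 to 27.6. In 3w EpCAM-low library 2, Gbp2 was at 39.1 CPM, against 21.1 to 22.3, and Eif2ak2 at 19.9 CPM, against 15.6 to 16.3. In 7w EpCAM-low cells, Eif2ak2 was at 23.9 CPM in library 4, against 20.9 to 21.3, and Parp14 at 15.8 CPM in library 3, against 7.10 to 8.57.

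Tap1 is listed because its gate difference was called as changed between the weeks, by 1.16 on the log2 scale (edgeR's interaction term, adjusted p = 0.0483). That call was lost in most fits with a library left out and in the fit of all 51 libraries. Tap1 was higher in EpCAM-high cells in 4 of 4 libraries at 7w.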

How the results depend on the processing

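No call changed direction under any setting. RLE size factors kept 307 of 309 called values past the threshold, no filter 300, DESeq2 293, and the replicate block 284. Leaving out 1 library at a time kept 2181 of 2435, and leaving out WT 4 and WT 6 together, chosen after seeing the data, kept 99 of 128. Summing WT 3 with 5 and WT 4 with 6 kept 155 of 165. Treating equal replicate numbers of K8YFP+ and K8YFP- as a block gave 5 calls in place of 2, and thinning to the smallest library gave 1. In Sox9cKO against SmoM2, no filter gave 1 call and DESeq2 gave 2, in place of 0, and over all genes 767 and 1206 in place of 454 (125 with the block, 1524 in the fit of 51). Over all genes, K8YFP+ against K8YFP- gave 4785 calls with the block, 6733 in the fit of 51 and 1122 after thinning, in place of 3110. The fit of 51 gave 1378 between the gates at 3w in place of 2625, and 42 for the interaction in place of 398, and thinning gave 2175 for gut against stomach in place of 6938. The fit of all 51 libraries gave 0 calls between the gates at 3w, 9 for 7w against 3w in EpCAM-high cells, and 0 for the interaction. No filter gave 22 calls for 7w EpCAM-low against WT. With 1 library left out, calls ranged from 12 to 17 for SmoM2 against WT, 1 to 3 for K8YFP+ against K8YFP-, 0 to 3 for Sox9cKO against SmoM2, 0 to 3 for the gates at 3w, 0 to 1 for the interaction, 10 to 19 for junction squamous against WT, and 15 to 30 for junction columnar against stomach. The cause of these changes was not tested. Correlations of equal-numbered libraries did not exceed 0.1 in every pair of SmoM2 with WT (-0.134 to 0.152) or Sox9cKO with SmoM2 (-0.143 to 0.267). The same held for the gates at 7w (0.075 to 0.207) and the junction groups (-0.049 to 0.021). Those at 7w were all positive, so that pairing there is unsettled. With the block 7 of 28 genes were called at 7w, 3 higher and 4 lower in EpCAM-high cells, where 5815 of all 17263 genes were called. With groups of 2 libraries and K8YFP+ totals from 1.61 M counts, genes near 1 CPM rested on few counts in a library, and their folds are imprecise.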
